A study of Caenorhabditis elegans with 13 samples.

Results

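The comparison described is that of *cec-4* mutant larvae with wild type larvae, gene by gene, on mRNA-seq of whole L1 hermaphrodites of *Caenorhabditis elegans*. A gene was taken as measured when the mean of the *cec-4* and wild type levels was above 1 FPKM (fragments per kilobase of exon, scaled to the mapped reads of the library, a level corrected for gene length). This left 16118 of 46170 genes. The *cec-4* group is strain RB2301, homozygous for the deletion *cec-4(ok3124)* on chromosome IV, and the wild type is strain N2. Both were grown on control vector RNAi, and each group holds 3 libraries. Embryos were hatched overnight without food and the larvae were fed for 3 hours before collection, so every library is one time point after feeding. Wild type on *dpy-27(RNAi)*, which depletes a subunit of the dosage compensation complex (4 libraries), and the double mutant EKM99, *met-2(n4256) set-25(n5021)* on chromosome III, on vector RNAi (3 libraries) are given beside *cec-4*. All 3 comparisons share the same wild type libraries, so a value that is unusual in wild type enters each of them.

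CEC-4 is a chromodomain protein of the inner nuclear membrane that binds methylated lysine 9 of histone H3 and holds the marked chromatin against the nuclear envelope. MET-2 and SET-25 are the methyltransferases that place this mark. In worms the mark is dense on the outer parts of the chromosomes, over repeats and over silent tissue-specific genes. In embryos loss of CEC-4 frees such chromatin from the periphery, whereas in differentiated cells other mechanisms can make up for its loss. The position of chromatin in these larvae was not measured here.

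The ratio used is log2 of (*cec-4* level + 0.1) over (wild type level + 0.1), from which the median of all measured genes, 0.13, was subtracted. A gene is called higher or lower when this centred ratio lies past 1.5-fold. The levels used are group means as the authors gave them, so no spread between libraries stands beside any value, no gene was tested, and a call is a statement of size only. The larvae were sequenced whole, and fewer cells of a type and less RNA per cell cannot be told apart. Reads carried no strand and could be shared among near-identical copies, so overlapping genes and tandem families are uncertain one by one. The *cec-4* gene itself (chromosome IV, 7575718 to 7577326, WBcel235) stood at 18.2 FPKM in wild type and 7.02 in *cec-4*, beside 22.9 in *met-2 set-25* and 14.5 under *dpy-27(RNAi)*. The transcript is lowest in the mutant but not absent, with a centred ratio of -1.49. Among the marker lists all 22 body wall muscle genes, all 19 pan-neuronal genes and 17 of 18 intestinal genes were measured, whereas 0 of 34 sperm genes and 0 of 6 vitellogenin genes were.

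Of the 16118 measured genes, 2865 (17.8%) were higher in *cec-4* and 2615 (16.2%) were lower. Without centring the counts were 3659 higher and 1876 lower. Of the higher genes 764 lay under 1 FPKM in wild type and of the lower genes 408 lay under 1 FPKM in *cec-4*, so these passed the minimum only through the group where they were high, and with each group above 1 FPKM the counts were 2227 and 2077. Among 13098 protein-coding genes, 1779 (13.6%) were higher and 1926 (14.7%) lower. These shares are the background for the counts below unless another is given. They are not matched for exon length, and both shares were larger among short genes. Of 2622 genes in the shortest of 5 length classes (84 to 769 bases), 525 were higher and 653 lower. Of 2619 in the longest (2324 bases and up), 228 were higher and 185 lower. Families of short genes, such as ribosomal proteins (median 534 bases), were not set against genes of like length. The ratio moved with the level of a gene. Protein-coding genes were divided by mean level into 5 classes of equal size. In the lowest class 639 were higher and 322 lower, with a median of 0.18. In the highest class 215 were higher and 573 lower, with a median of -0.20. The lowest class had medians of 0.17 in *dpy-27(RNAi)* and 0.18 in *met-2 set-25*, and the highest class -0.05 and -0.18. Genes of low level lay above the median gene in all 3 comparisons with the same wild type.

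**Figure D1:**
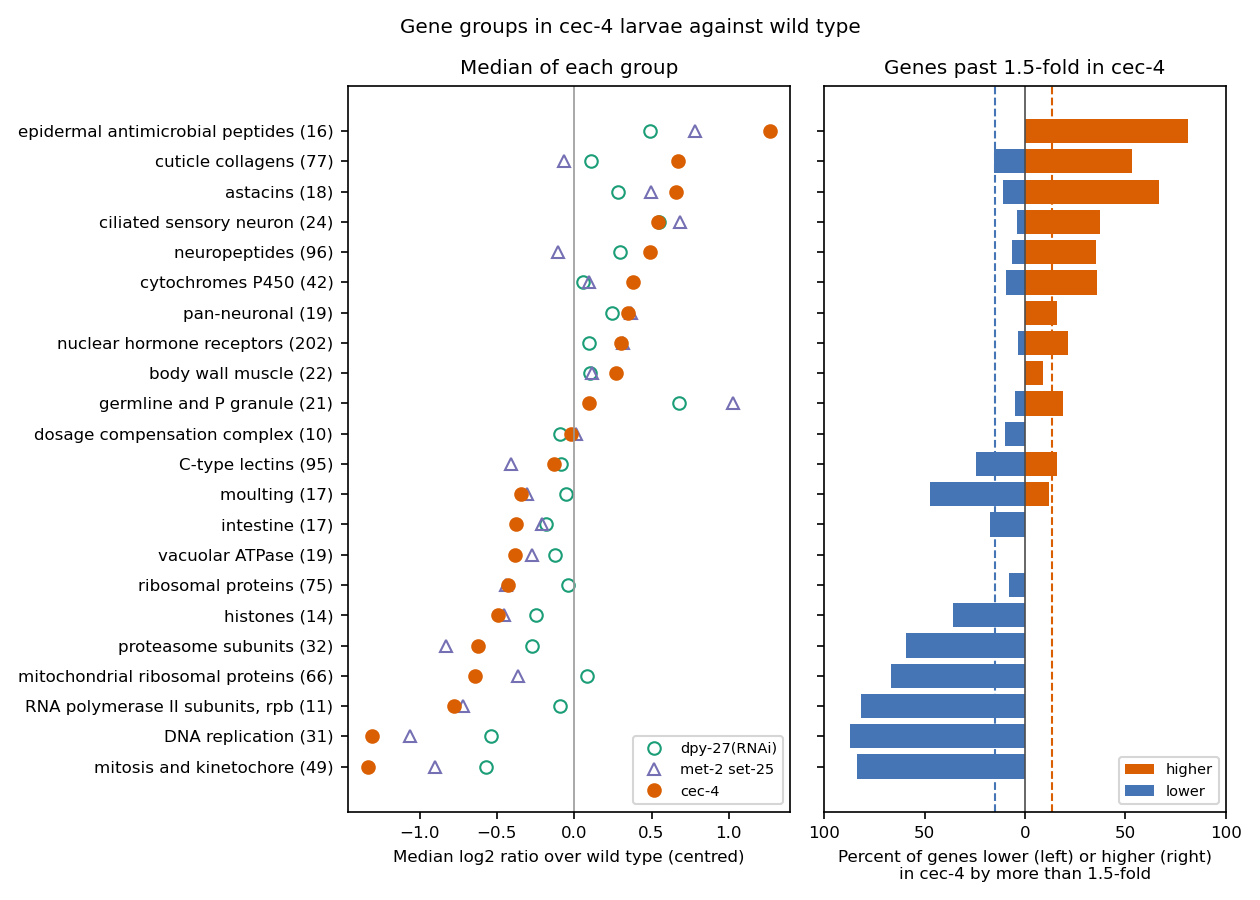
Gene families and lists, with the number of measured genes in brackets. Left, median centred log2 ratio over wild type for *cec-4* (filled circles), *dpy-27(RNAi)* (open circles) and *met-2 set-25* (triangles), all against the same wild type. Right, the percent of genes higher or lower than wild type in *cec-4* by more than 1.5-fold, with dashed lines at 13.6% and 14.7% for protein-coding genes. Cell division genes lie at the bottom, and the epidermal antimicrobial peptides, a list drawn up after part of it had been seen to be high, at the top.

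Genes of DNA replication and of mitosis had the lowest medians of all lists. Of 31 measured genes, 27 were lower in *cec-4* and 0 were higher, with a median centred ratio of -1.31 (medians -0.54 in *dpy-27(RNAi)* and -1.06 in *met-2 set-25*). *mcm-7*, a subunit of the helicase that unwinds DNA at the fork, stood at 37.7 FPKM in wild type and 9.59 in *cec-4*, beside 13.3 in *met-2 set-25* and 20.02 under *dpy-27(RNAi)*. *pcn-1*, the sliding clamp of DNA polymerase, stood at 134 FPKM in wild type and 41.1 in *cec-4*, beside 45.1 in *met-2 set-25* and 80.1 under *dpy-27(RNAi)*. In both, wild type was the highest group, *dpy-27(RNAi)* came next and *cec-4* was the lowest. The other 5 *mcm* helicase subunits had ratios between -1.71 (*mcm-4*) and -1.23 (*mcm-6*). *psf-3*, of the GINS complex (-1.82), and the primase subunit *pri-2* (-1.78) were lower by a like amount, as were *rnr-1* and *rnr-2*, which make deoxyribonucleotides (-1.48 and -1.51). Some members lay closer to wild type. *rpa-2*, which coats single-stranded DNA, stood at 103.6 FPKM in wild type and 91.3 in *cec-4*, beside 82.5 in *met-2 set-25* and 88.3 under *dpy-27(RNAi)*, and *orc-2* and *cdc-6*, which mark origins, had ratios of -0.47 and -0.55, short of 1.5-fold.

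Genes of mitosis and the kinetochore, a list drawn up after the replication genes had been seen, lay as low. Of 49 measured genes, 41 were lower in *cec-4* and 0 higher, with a median of -1.33 (-0.57 in *dpy-27(RNAi)* and -0.90 in *met-2 set-25*), and *cec-4* was the lowest of the 4 groups for 37. *kbp-1*, a kinetochore protein, stood at 10.0 FPKM in wild type and 1.62 in *cec-4*, beside 2.04 in *met-2 set-25* and 4.14 under *dpy-27(RNAi)*. The spindle checkpoint gene *mdf-2* stood at 48.2 FPKM in wild type and 11.7 in *cec-4*, beside 13.05 in *met-2 set-25* and 24.2 under *dpy-27(RNAi)*, and *cdk-1*, the kinase that drives entry into mitosis, at 45.5 FPKM in wild type and 11.8 in *cec-4*, beside 14.4 in *met-2 set-25* and 24.4 under *dpy-27(RNAi)*. For all 3 genes wild type stood far above the rest and *cec-4* was lowest, close to *met-2 set-25*. *air-2*, the Aurora B kinase, *mis-12* and the mitotic cyclin *cyb-3* had ratios of -2.11, -2.07 and -1.92, the phosphatase *cdc-25.2* -2.07, and *tyms-1*, which makes thymidylate, -2.08. Regulators of earlier cell cycle steps were lower by less, with -0.98 for cyclin D (*cyd-1*) and -0.95 for the retinoblastoma homolog *lin-35*. The microtubule genes *zyg-9* and *klp-7* had ratios of 0.21 and 0.03. The inhibitor *cki-1* stood at 62.8 FPKM in wild type and 61.6 in *cec-4*, beside 78.1 in *met-2 set-25* and 53.99 under *dpy-27(RNAi)*, with *cec-4* close to wild type. In newly hatched larvae the blast cells resume division only after feeding, and with a single time point a lower level and a later rise cannot be told apart.

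**Figure D2:**
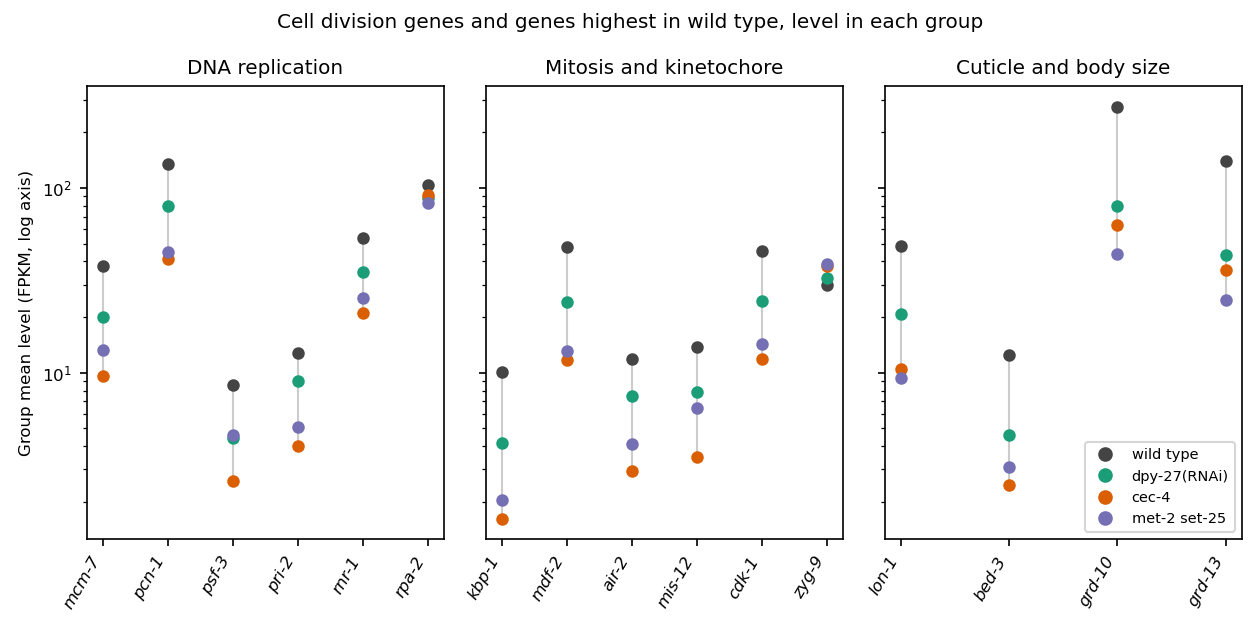
Group mean level (FPKM, log axis) of replication genes, mitotic genes and 4 genes of cuticle and body size, with 1 point per group. Wild type is the highest point for 11 of the first 12 genes and for all of the last 4, and *zyg-9* is the exception at 29.8 FPKM in wild type and 37.8 in *cec-4*.

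Many genes of the machinery that makes and turns over protein lay below the median gene by small amounts. Mitochondrial ribosomal proteins, which build the ribosome of the mitochondrion, had 44 of 66 genes lower and 0 higher, with a median of -0.64 and all ratios between -1.02 and 0.07. Summed over the large subunit genes, the level was 2394 FPKM in wild type and 1677 in *cec-4*, beside 1901 in *met-2 set-25* and 2595 under *dpy-27(RNAi)*. *cec-4* was the lowest of the 4 groups for 57 of the 66 genes, and the *dpy-27(RNAi)* median of 0.08 lay on the other side of 0. *mrpl-12* stood at 129.8 FPKM in wild type and 70.1 in *cec-4*, beside 79.2 in *met-2 set-25* and 122.3 under *dpy-27(RNAi)*. Subunits of RNA polymerase II (*rpb*) had 9 of 11 genes lower (median -0.78; -0.09 in *dpy-27(RNAi)* and -0.72 in *met-2 set-25*), among them *rpb-10* (-0.96) and *rpb-12* (-0.93). The large *rpb-2* subunit had a ratio of -0.51. The exosome (*exos*), which degrades RNA, had 5 of 8 lower, and the prolyl isomerases that assist folding had 7 of 15 (*cyn*) and 5 of 8 (*fkb*) lower, with none of the 3 classes holding a higher gene.

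Of 32 proteasome subunits, 19 were lower and 0 higher (median -0.62; -0.28 in *dpy-27(RNAi)* and -0.83 in *met-2 set-25*). The difference was larger in the proteolytic core than in the regulatory cap. In the core 13 of 14 genes were lower with a median of -0.81, and in the cap 6 of 18 were lower with a median of -0.51. *pas-5* of the core stood at 138 FPKM in wild type and 71.5 in *cec-4*, beside 67.9 in *met-2 set-25* and 105 under *dpy-27(RNAi)*, so that wild type was highest and both mutants lay together below it. Cytosolic ribosomal proteins are among the most abundant mRNAs of the larva. Of 75 measured genes 6 were lower and 0 higher, with a median of -0.43, and *rpl-24.2* (0.06) was the only one with a ratio above 0. The median was -0.17 when genes were centred within bins of their level. Their summed level was 220613 FPKM for *rpl* genes in wild type and 184392 in *cec-4*, with 217826 in *dpy-27(RNAi)* and 167658 in *met-2 set-25*. Subunits of the vacuolar proton pump (*vha*) had a median of -0.38 with 0 of 19 genes past 1.5-fold.

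Of 12 tubulins named *tba* or *tbb*, 6 were lower and 3 higher. The general tubulins *tba-1*, *tba-2*, *tbb-1* and *tbb-2* had ratios of -0.93, -1.05, -0.96 and -0.78, and *tba-2* stood at 609.9 FPKM in wild type and 323 in *cec-4*, beside 342 in *met-2 set-25* and 479 under *dpy-27(RNAi)*. The touch neuron tubulins *mec-7* and *mec-12* had ratios of 0.23 and 0.20, and the ciliary *tba-5* and *tba-9* were higher, at 0.59 and 0.62, as was *tbb-6* (0.60). *tba-4* (-0.89) and *tba-8*, with 0.171 against 2.19 FPKM in *cec-4* against wild type, were lower. For *tba-1*, *tba-2*, *tbb-1* and *tbb-2* all 3 other groups lay below wild type, and *cec-4* was the lowest.

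Genes that write or read the anchoring mark passed 1.5-fold in shares near the background. Of 19 writers and readers of histone H3 lysine 9 methylation, 4 were lower, the deleted *cec-4* among them, and 2 were higher. That is 21.1% lower and 10.5% higher, beside 14.7% and 13.6% of protein-coding genes. *hpl-2*, an HP1 homolog, stood at 69.6 FPKM in wild type and 45.3 in *cec-4*, beside 43.8 in *met-2 set-25* and 56.4 under *dpy-27(RNAi)*, and the chromodomain gene *cec-5* at 119.4 FPKM in wild type and 75.4 in *cec-4*, beside 80.98 in *met-2 set-25* and 90.9 under *dpy-27(RNAi)*, each with wild type above both mutants. *set-11* and *cec-2* were higher, at 6.19 against 3.10 FPKM and 10.7 against 5.68 FPKM in *cec-4* against wild type. *met-2* and *set-25* had ratios of -0.08 and -0.33. Of 12 lamina and nuclear envelope genes 4 were lower and 1 higher (33.3% and 8.33%), beside 14.7% and 13.6% of protein-coding genes. Emerin (*emr-1*, -0.88), *baf-1* (-0.71) and *lem-2* (-0.68) were among the lower, and lamin itself (*lmn-1*) had a ratio of -0.25. The 10 dosage compensation genes had a median of -0.02, with 1 lower (*dpy-30*, -0.63). The linker histone *his-24* stood at 470.1 FPKM in wild type and 191 in *cec-4*, beside 238 in *met-2 set-25* and 227 under *dpy-27(RNAi)*, and 5 of 14 measured histone genes were lower with 0 higher. Most core histone mRNAs lack a polyA tail, and 58 of 72 histone genes were not measured.

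Germline genes are repressed in the body of the larva, where the germline is a pair of precursor cells. Of 21 measured germline and P granule genes, 4 were higher in *cec-4* and 1 lower, with a median of 0.09 that changed sign to -0.10 when centred within bins of level, beside medians of 0.68 in *dpy-27(RNAi)* and 1.03 in *met-2 set-25*. *glh-1*, a P granule helicase, stood at 25.5 FPKM in wild type and 17.4 in *cec-4*, beside 168 in *met-2 set-25* and 26.8 under *dpy-27(RNAi)*. The translational repressor *gld-1* stood at 6.22 FPKM in wild type and 4.57 in *cec-4*, beside 23.6 in *met-2 set-25* and 8.38 under *dpy-27(RNAi)*, and the P granule protein *pgl-1* at 3.45 FPKM in wild type and 4.55 in *cec-4*, beside 25.03 in *met-2 set-25* and 7.51 under *dpy-27(RNAi)*. In these 3 genes *met-2 set-25* was the highest group by a wide margin, and *cec-4* lay near wild type or below it. The 4 higher members in *cec-4* (*glh-2*, *glh-4*, *puf-8* and *nos-1*) had levels of 3.00 FPKM or less in that group. The histone variant gene *his-74* also had *met-2 set-25* as its highest group, with 7.91 FPKM in wild type and 7.76 in *cec-4*, beside 82.6 in *met-2 set-25* and 13.3 under *dpy-27(RNAi)*.

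The genes with the lowest ratios, which the choice by ratio draws toward a high wild type level, included several of metabolism. *acdh-1*, an acyl-CoA dehydrogenase of the propionate shunt that is known to respond to dietary vitamin B12, stood at 26.3 FPKM in wild type and 0.252 in *cec-4*, beside 0.333 in *met-2 set-25* and 0.153 under *dpy-27(RNAi)*. *pud-3* and *pud-4*, known for their rise in insulin receptor mutants, stood at 634 FPKM in wild type and 71.1 in *cec-4*, beside 4.13 in *met-2 set-25* and 18.3 under *dpy-27(RNAi)*, and at 488 FPKM in wild type and 42.0 in *cec-4*, beside 6.97 in *met-2 set-25* and 20.7 under *dpy-27(RNAi)*. In all 3 genes wild type alone was high. The same held for the C-type lectin *clec-82* (17.4 FPKM in wild type and 1.34 in *cec-4*), *sqst-3* (17.4 FPKM in wild type and 1.76 in *cec-4*) and *pud-1.2* (333 FPKM in wild type and 67.4 in *cec-4*). Among all 1926 lower protein-coding genes wild type was the highest of the 4 groups for 1492 and *cec-4* the lowest for 1034, and among the 25 with the lowest ratio above 5 FPKM the counts were 25 and 12. A difference particular to the wild type libraries and one common to the other 3 groups cannot be told apart. For *F44G3.10*, *cec-4* was far below every other group, with 64.1 FPKM in wild type and 2.06 in *cec-4*, beside 23.3 in *met-2 set-25* and 32.7 under *dpy-27(RNAi)*.

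Sets of fat and one-carbon metabolism differed in direction. Lipid-binding proteins (*lbp*) had 5 of 8 genes lower and 1 higher. *lbp-6* stood at 737 FPKM in wild type and 364 in *cec-4*, beside 273 in *met-2 set-25* and 401 under *dpy-27(RNAi)*, low in all 3 other groups, and *lbp-1*, the exception, at 141 FPKM in wild type and 327 in *cec-4*, beside 172 in *met-2 set-25* and 127 under *dpy-27(RNAi)*. The retinol-binding *far-1*, one of the most abundant mRNAs, had a ratio of -0.61 and its low-level relatives *far-3* and *far-4* had ratios of 2.36 and 2.50. Of 8 *far* genes 4 were lower and 3 higher. Of 8 lipase genes (*lips*) 3 were higher and 0 lower, of 19 genes of fat breakdown 3 were higher and 2 lower, and of 16 acyl-CoA synthetases (*acs*) none passed 1.5-fold in either direction. In the methionine cycle 4 of 14 genes were lower and 0 higher, with *mthf-1* at -1.22. Of 17 genes of fatty acid desaturation and elongation 7 were lower, including *let-767* (-0.95) and *fat-1* (-0.78), and 1 was higher, with a median of -0.25 that moved just above 0, to 0.0015, when genes were centred within bins of their level. Intestinal markers, which many of these genes share a tissue with, had a median of -0.37, with 3 of 17 lower and 0 higher, while the gut transcription factor *elt-2* had a ratio of -0.40 and the gut esterase *ges-1* 0.06.

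More cuticle collagens were higher in *cec-4* than lower. The cuticle is an extracellular coat of collagens that the epidermis secretes anew before each moult. Of 77 measured collagen genes (*col*), 41 were higher in *cec-4* and 12 lower, with a median of 0.67 (0.11 in *dpy-27(RNAi)* and -0.07 in *met-2 set-25*). Of the 77, 14 lay under 1 FPKM in wild type and 0 in *cec-4*, so 14 passed the minimum only through the group where they were high. The median was 0.47 with each group above 1 FPKM, 0.28 above 5 FPKM and 0.29 with no minimum. The split followed level. Of 48 collagen genes under 10 FPKM on average over the 4 groups, 36 were higher and 2 lower, and of 12 genes at 100 FPKM or more 0 were higher and 4 lower. Summed levels were 103 FPKM in wild type and 224 in *cec-4* for the first set, with 132 in *dpy-27(RNAi)* and 124 in *met-2 set-25*. For the second set they were 4102 and 3763 FPKM, with 3417 and 3303. The sum of the low-level collagens was highest in *cec-4*, and that of the abundant ones was highest in wild type. Genes that passed the minimum only through *cec-4* can add to the higher count and to the *cec-4* sum of the low-level set. The split by level was not repeated without them. *col-96* stood at 4.21 FPKM in wild type and 31.9 in *cec-4*, beside 18.9 in *met-2 set-25* and 13.6 under *dpy-27(RNAi)*. *col-109* stood at 2.84 FPKM in wild type and 14.2 in *cec-4*, beside 2.63 in *met-2 set-25* and 4.82 under *dpy-27(RNAi)*, where only *cec-4* was high. *col-149* went the other way, with 5.75 FPKM in wild type and 1.49 in *cec-4*, beside 1.05 in *met-2 set-25* and 1.40 under *dpy-27(RNAi)*.

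**Figure D3:**
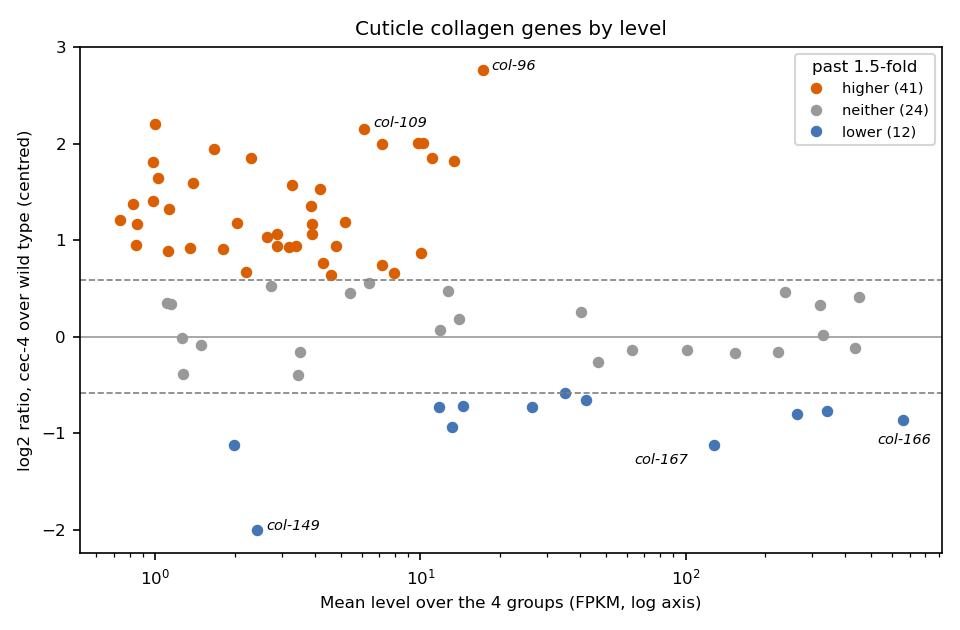
Centred log2 ratio of *cec-4* over wild type (vertical) against mean level over the 4 groups (FPKM, log axis) for 77 collagen genes, 1 point per gene. Dashed lines mark 1.5-fold. Of the 41 higher genes 36 lie under 10 FPKM, and no gene at 100 FPKM or more is above the upper line. Of the 77 genes 14 passed the minimum only through *cec-4*.

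Several other families, of astacins, hedgehog-related and patched-related genes, had more higher than lower genes. Astacin metalloproteases (*nas*), some of which cleave cuticle proteins, had 12 of 18 genes higher and 2 lower (median 0.66; 0.28 in *dpy-27(RNAi)* and 0.50 in *met-2 set-25*). *nas-6* stood at 2.63 FPKM in wild type and 11.03 in *cec-4*, beside 6.10 in *met-2 set-25* and 3.95 under *dpy-27(RNAi)*, and *nas-38* at 0.840 FPKM in wild type and 3.93 in *cec-4*, beside 0.671 in *met-2 set-25* and 1.46 under *dpy-27(RNAi)*, and *cec-4* was the highest group for both. Ground-like proteins (*grl*), of the nematode hedgehog-related set, had 7 of 12 higher and 0 lower, led by *grl-21* with 8.79 FPKM in wild type and 63.7 in *cec-4*, beside 5.96 in *met-2 set-25* and 15.2 under *dpy-27(RNAi)*. Of the *grl* genes 3 lay under 1 FPKM in wild type and 0 in *cec-4*, so 3 passed the minimum only through the group where they were high. The *grl* median was 0.72, and 0.42 with each group above 1 FPKM. Hedgehog-related genes as a whole, *grl* included, had 10 of 23 higher and 4 lower. Their median of 0.39 changed sign above 5 FPKM. Their summed level was 662 FPKM in wild type and 398 in *cec-4*, beside 217 in *met-2 set-25* and 309 under *dpy-27(RNAi)*. Of the *nas* genes 2 lay under 1 FPKM in wild type and 1 in *cec-4*, and their median was 0.65 with each group above 1 FPKM. Patched-related transporters (*ptr*, *ptc*) had 7 of 19 higher and 2 lower. The moulting list had 8 of 17 lower and 2 higher, with a median ratio of -0.34 that turned to 0.53 among genes above 5 FPKM and to 0.01 with no minimum, and *fbn-1*, a fibrillin-like matrix protein, stood at 1.98 FPKM in wild type and 0.517 in *cec-4*, beside 0.546 in *met-2 set-25* and 0.621 under *dpy-27(RNAi)*. Several epidermal genes were high in wild type alone. *lon-1*, a repressor of body length, stood at 48.6 FPKM in wild type and 10.4 in *cec-4*, beside 9.30 in *met-2 set-25* and 20.7 under *dpy-27(RNAi)*, the moulting factor *bed-3* at 12.5 FPKM in wild type and 2.45 in *cec-4*, beside 3.07 in *met-2 set-25* and 4.59 under *dpy-27(RNAi)*, and the hedgehog-related *grd-10* at 276 FPKM in wild type and 62.9 in *cec-4*, beside 43.7 in *met-2 set-25* and 79.7 under *dpy-27(RNAi)*. Of 10 measured hypodermal markers 4 were lower and 0 higher, among them the transcription factors *nhr-23* (-0.69) and *elt-1* (-0.67), and *elt-3* had a ratio of 0.13.

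The epidermis also makes antimicrobial peptides upon wounding and fungal infection. The list of *nlp-27* to *nlp-34* and the caenacins (*cnc*) was drawn up after the caenacins, which it holds, had been seen to be high, so its median is a description of that choice in part. Of 16 measured genes 13 were higher in *cec-4* and 0 lower, with a median of 1.27 (0.49 in *dpy-27(RNAi)* and 0.78 in *met-2 set-25*). *nlp-29*, the usual reporter of this response, stood at 78.9 FPKM in wild type and 228 in *cec-4*, beside 128 in *met-2 set-25* and 133 under *dpy-27(RNAi)*. *nlp-34* stood at 55.8 FPKM in wild type and 273 in *cec-4*, beside 139 in *met-2 set-25* and 136 under *dpy-27(RNAi)*, and *cnc-4* at 20.4 FPKM in wild type and 69.9 in *cec-4*, beside 42.2 in *met-2 set-25* and 34.4 under *dpy-27(RNAi)*. *cec-4* was the highest group and wild type the lowest for all 3, and the other 2 groups lay between. The 3 members not higher, *cnc-3*, *cnc-8* and *nlp-33*, had ratios of -0.45, -0.45 and -0.24.

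The peptide genes are neighbours. The 6 genes from *nlp-34* to *nlp-27* lie on chromosome V between 3978825 and 3989770 and all were higher, with ratios from 0.89 to 2.16. A second run of 6 higher genes lies on the same chromosome between 4025047 and 4044951 and holds *K09D9.1*, *C49G7.7*, *C49G7.12*, *C49G7.10*, the infection response gene *irg-2* and the pharyngeal gland gene *phat-3*, with ratios from 1.70 to 2.31. The 66.1 kb that spans both holds 13 measured protein-coding genes, of which 12 were higher. These 12 are the genes of the 2 runs that set its limits, so the count follows from how the stretch was drawn. *irg-2* stood at 6.18 FPKM in wild type and 29.3 in *cec-4*, beside 10.0 in *met-2 set-25* and 11.7 under *dpy-27(RNAi)*. *phat-3*, a toxin-related gene of the pharyngeal glands, stood at 32.8 FPKM in wild type and 117 in *cec-4*, beside 63.3 in *met-2 set-25* and 56.7 under *dpy-27(RNAi)*, and its paralogs *phat-4* and *phat-5* were higher too (4.96 against 1.54 FPKM and 22.1 against 4.91 FPKM in *cec-4* against wild type) while *phat-6*, on X, had a ratio of 0.15.

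Some genes known from intestinal infection were also higher, and those named here were chosen after their values were seen. *T24B8.5*, a reporter of the p38 immune pathway, stood at 3.76 FPKM in wild type and 57.03 in *cec-4*, beside 3.41 in *met-2 set-25* and 11.3 under *dpy-27(RNAi)*. *irg-1* stood at 10.1 FPKM in wild type and 28.98 in *cec-4*, beside 7.74 in *met-2 set-25* and 9.81 under *dpy-27(RNAi)*, and the lysozyme *lys-7* at 32.9 FPKM in wild type and 107 in *cec-4*, beside 33.7 in *met-2 set-25* and 54.1 under *dpy-27(RNAi)*. In these 3 genes *cec-4* was the highest group and *met-2 set-25* lay near wild type, and *dpy-27(RNAi)* lay between the 2 for *T24B8.5* and *lys-7*. *F55G11.4*, which encodes a protein with a CUB-like domain, followed the same order with 4.18 FPKM in wild type and 85.8 in *cec-4*, beside 3.49 in *met-2 set-25* and 8.19 under *dpy-27(RNAi)*, and *F35E12.5*, with a like domain, did not, with 7.93 FPKM in wild type and 90.8 in *cec-4*, beside 49.6 in *met-2 set-25* and 57.6 under *dpy-27(RNAi)*, high in all 3 groups. The defence families as wholes held genes of both directions. Of 10 *lys* lysozymes 2 were higher and 3 lower, and of 17 saposin-like *spp* genes 2 were higher and 6 lower. Of 95 C-type lectins 15 were higher and 23 lower, with a median of -0.13 that turned to 0.14 above 5 FPKM. Of 69 antimicrobial peptide and lysozyme genes, taken by name and including caenacins, 26 were higher and 13 lower, with a median of 0.28 that turned to -0.03 above 5 FPKM. *clec-41* stood at 17.3 FPKM in wild type and 103 in *cec-4*, beside 21.9 in *met-2 set-25* and 39.3 under *dpy-27(RNAi)*, and *clec-5* at 87.9 FPKM in wild type and 19.9 in *cec-4*, beside 37.3 in *met-2 set-25* and 49.2 under *dpy-27(RNAi)*, so that *cec-4* was the highest group for the first and the lowest for the second. Over the 95 lectins *cec-4* was the highest group for 33 and the lowest for 18, on levels that were not centred. For comparison, *cec-4* was the highest group for 1061 of 2714 protein-coding genes on chromosome V and 3294 of 10384 not on V. *lys-5* was lower in *cec-4* alone, with 16.21 FPKM in wild type and 3.67 in *cec-4*, beside 12.9 in *met-2 set-25* and 17.1 under *dpy-27(RNAi)*.

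**Figure D4:**
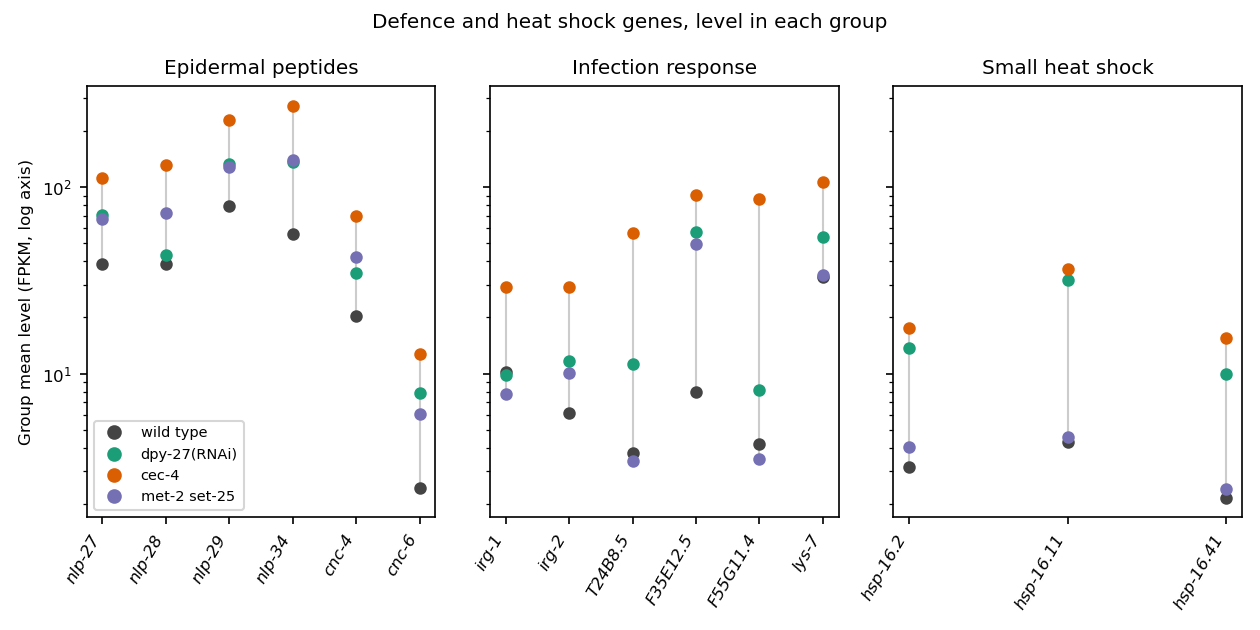
Group mean level (FPKM, log axis) of epidermal peptide genes, infection response genes and small heat shock genes, 1 point per group. *cec-4* is the highest point for all 15 genes. For the 3 *hsp-16* genes *dpy-27(RNAi)* lies next to *cec-4*, and *met-2 set-25* next to wild type.

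The 3 measured *hsp-16* genes, small heat shock genes that are nearly silent without stress, were high in *cec-4* and also after *dpy-27* depletion. Of 16 measured *hsp* genes, these included, 6 were higher and 3 lower, with a median of -0.14. In the heat shock response list 5 of 12 were higher and 2 lower. *hsp-16.11* stood at 4.32 FPKM in wild type and 36.2 in *cec-4*, beside 4.58 in *met-2 set-25* and 31.8 under *dpy-27(RNAi)*. *hsp-16.2* stood at 3.16 FPKM in wild type and 17.6 in *cec-4*, beside 4.05 in *met-2 set-25* and 13.7 under *dpy-27(RNAi)*, and the inducible Hsp70 gene *F44E5.4* at 0.470 FPKM in wild type and 4.91 in *cec-4*, beside 0.561 in *met-2 set-25* and 3.44 under *dpy-27(RNAi)*. The *hsp-16* copies are near identical in pairs, so reads may be shared among them. The constitutive chaperones did not follow, since *hsp-1* had a ratio of -0.64 and *daf-21* (Hsp90) -0.27, and in the endoplasmic reticulum *hsp-4* had 0.71 and *hsp-3* -0.17.

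The nervous system lay above the median gene, by small amounts in its general markers. Of 96 neuropeptide and insulin genes 34 were higher and 6 lower (median 0.49; 0.29 in *dpy-27(RNAi)* and -0.10 in *met-2 set-25*), and *cec-4* was the highest of the 4 groups for 69. This family, taken by name, holds 8 of the epidermal *nlp* genes above, of which 7 were higher. Among the other 88 genes 27 were higher and 6 lower, with a median of 0.45, and *cec-4* was highest for 62. Over all protein-coding genes *cec-4* was highest for 1061 of 2714 on chromosome V and 3294 of 10384 not on V. These counts of the highest group use levels that were not centred. The FMRFamide-like *flp* genes had 8 of 30 higher and 0 lower, and their summed level was 3197 FPKM in wild type and 4514 in *cec-4*, beside 2507 in *met-2 set-25* and 3442 under *dpy-27(RNAi)*. *flp-3* stood at 42.4 FPKM in wild type and 94.4 in *cec-4*, beside 37.8 in *met-2 set-25* and 70.7 under *dpy-27(RNAi)*. The enzymes that process these peptides followed: *egl-3*, a proprotein convertase, stood at 264 FPKM in wild type and 481 in *cec-4*, beside 345 in *met-2 set-25* and 328 under *dpy-27(RNAi)*, and *egl-21*, a carboxypeptidase, at 332 FPKM in wild type and 569 in *cec-4*, beside 389 in *met-2 set-25* and 400.2 under *dpy-27(RNAi)*. *ida-1*, of dense-core vesicles, had a ratio of 0.75. In all of these *cec-4* was the highest group. All 19 pan-neuronal genes had ratios above 0, from 0.09 to 0.75, with a median of 0.35. The 3 past 1.5-fold are 15.8%, near the 13.6% of protein-coding genes that were higher.

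Genes of the cilia on sensory neurons had 9 of 24 higher and 1 lower, with a median of 0.54 beside medians of 0.55 in *dpy-27(RNAi)* and 0.68 in *met-2 set-25*. The dynein motor *che-3* stood at 2.69 FPKM in wild type and 5.90 in *cec-4*, beside 4.56 in *met-2 set-25* and 4.57 under *dpy-27(RNAi)*, where wild type was the low group. Of 69 ligand-gated channels 11 were higher and 1 lower (15.9% and 1.45%), and of 45 potassium channels 7 and 0 (15.6% and 0%). The higher shares lie near the 13.6% of protein-coding genes, and the lower shares under their 14.7%. Body wall muscle markers, with a median level of 483 FPKM, had a median of 0.27 and 2 of 22 higher (9.09%). These were the myosin *myo-3* (0.79) and the giant kinase *unc-22* (0.74), while *unc-60* had -0.13. Among insulins *ins-20* (8.55 against 1.11 FPKM in *cec-4* against wild type) and *ins-11* (20.8 against 2.98 FPKM) were higher, and *ins-27* stood at 92.4 FPKM in wild type and 35.8 in *cec-4*, beside 22.8 in *met-2 set-25* and 49.3 under *dpy-27(RNAi)*, lowest in both mutants. The insulin receptor *daf-2* stood at 24.5 FPKM in wild type and 44.3 in *cec-4*, beside 40.2 in *met-2 set-25* and 30.1 under *dpy-27(RNAi)*, highest in *cec-4*.

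Among families of regulation and detoxification the largest was that of nuclear hormone receptors, with 43 of 202 higher and 7 lower and a median of 0.30. That is 21.3% higher and 3.47% lower, beside 13.6% and 14.7% of protein-coding genes. Chromosome V holds 133 of the 202, of which 33 were higher and 4 lower (24.8% and 3.01%), beside 20.6% and 13.7% of all protein-coding genes on V. Of the 69 on other chromosomes 10 were higher and 3 lower (14.5% and 4.35%), beside 11.7% and 14.975% of protein-coding genes there. *nhr-62* stood at 5.71 FPKM in wild type and 15.6 in *cec-4*, beside 9.44 in *met-2 set-25* and 11.44 under *dpy-27(RNAi)*, and *nhr-74* at 2.27 FPKM in wild type and 0.458 in *cec-4*, beside 1.76 in *met-2 set-25* and 5.57 under *dpy-27(RNAi)*, low only in *cec-4*. Cytochromes P450 had 15 of 42 higher and 4 lower, and the higher *cyp-14A5* stood at 32.4 FPKM in wild type and 69.3 in *cec-4*, beside 32.3 in *met-2 set-25* and 30.8 under *dpy-27(RNAi)*. ABC transporters had 10 of 31 higher and 4 lower, led by *pgp-5* with 5.85 FPKM in wild type and 42.1 in *cec-4*, beside 17.2 in *met-2 set-25* and 18.4 under *dpy-27(RNAi)*, and by its X-linked relatives *pgp-6* and *pgp-7* (1.87 and 2.67). UDP-glucuronosyltransferases split 17 higher and 10 lower of 55, with *ugt-29* at 3.93 FPKM in wild type and 42.8 in *cec-4*, beside 11.3 in *met-2 set-25* and 11.402 under *dpy-27(RNAi)*. Glutathione S-transferases split 9 and 10 of 42. The *abu* and *pqn* genes, which encode glutamine-rich proteins many of which line the pharynx, had 18 of 51 higher and 1 lower, with *abu-10* at 2.72 FPKM in wild type and 10.9 in *cec-4*, beside 3.45 in *met-2 set-25* and 4.73 under *dpy-27(RNAi)*.

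Large families that are silent in most cells gave little. Of 1544 chemoreceptor genes 1425 were not measured, and the rest stood at a median of 1.85 FPKM, with 27 higher and 12 lower and a median of 0.15 that changed sign to -0.03 when centred within bins of level. Of 147 F-box genes 37 were higher and 15 lower, and their median of 0.15 fell just below 0 in the same bins and to -0.01 with no minimum. Of 46 MATH and BATH genes 4 were higher and 5 lower. In an F-box cluster the 9 neighbours from *fbxa-33* to *Y82E9BL.12* on chromosome III (1279627 to 1311226) were all higher. It was the longest run of higher genes when pseudogenes were counted, and with protein-coding genes alone it was 1 of 4 runs of 6. *fbxa-35* in it stood at 3.08 FPKM in wild type and 8.52 in *cec-4*, beside 4.81 in *met-2 set-25* and 4.26 under *dpy-27(RNAi)*. Of 440 pseudogenes 99 were higher and 58 lower (22.5% and 13.2%), beside 24.4% and 12.29% for the lowest class of protein-coding genes by level.

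The 25 protein-coding genes with the highest ratio above 5 FPKM, chosen after their values were seen, included 11 on chromosome V and 7 on IV, which hold 20.7% and 16.03% of measured protein-coding genes. *cec-4* was the highest of the 4 groups for 23 and wild type the lowest for 19, and among all 1779 higher genes these counts were 1351 and 1478. Choice by a high ratio draws toward a high *cec-4* and a low wild type level, so these counts follow in part from the choice. Of the 1779, 252 lay under 1 FPKM in wild type and passed the minimum only through *cec-4*. *C50F7.5* stood at 12.1 FPKM in wild type and 309 in *cec-4*, beside 32.5 in *met-2 set-25* and 58.0 under *dpy-27(RNAi)*. *R07B7.12* stood at 0.115 FPKM in wild type and 21.4 in *cec-4*, beside 8.63 in *met-2 set-25* and 0.112 under *dpy-27(RNAi)*, high in both mutants only, and *Y54G2A.28* had 0.111 FPKM in wild type and 9.91 in *cec-4*, beside 1.05 in *met-2 set-25* and 0.455 under *dpy-27(RNAi)*. *ech-9*, of the enoyl-CoA hydratase class, stood at 1.16 FPKM in wild type and 21.4 in *cec-4*, beside 2.63 in *met-2 set-25* and 5.67 under *dpy-27(RNAi)*, and *lips-11*, of the lipase class, at 0.599 FPKM in wild type and 9.02 in *cec-4*, beside 1.67 in *met-2 set-25* and 1.94 under *dpy-27(RNAi)*. In the latter pair *cec-4* alone was far above the rest. *R07B7.12*, *Y54G2A.28* and *lips-11* lay under 1 FPKM in wild type, so they passed the minimum only through *cec-4*.

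Neighbouring genes of like direction were found for both signs. Among protein-coding genes there were 87 runs of 3 or more higher neighbours, holding 298 genes, and 61 runs of lower neighbours, holding 223 genes. The longest lower run, of 8 genes on chromosome V (17069139 to 17240721), included *ZK218.5* with 2.79 FPKM in wild type and 0.207 in *cec-4*, beside 5.46 in *met-2 set-25* and 6.12 under *dpy-27(RNAi)*, and *T19C9.8* with 7.86 FPKM in wild type and 0.728 in *cec-4*, beside 2.50 in *met-2 set-25* and 3.30 under *dpy-27(RNAi)*. With all measured genes counted, it parted into a run of 7 that ends at 17102109, with *ZK218.5*, and one of 3 from 17159874, with *T19C9.8*. A run of 7 on chromosome I (2304513 to 2322596) joined *icp-1*, of the chromosomal passenger complex, *tbca-1*, a tubulin cofactor, and *mcm-4*. On chromosome X 4 collagens from *col-167* to *col-170* were lower together (6323488 to 6338051), and *col-167* stood at 191 FPKM in wild type and 96.4 in *cec-4*, beside 101 in *met-2 set-25* and 122.4 under *dpy-27(RNAi)*. On the autosomes the outer 25% at each end had 621 of 4310 protein-coding genes higher and 712 lower (14.4% and 16.52%), and the middle 852 of 6791 higher and 1033 lower (12.5% and 15.2%).

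Spacing of genes went with direction. Worm genes that sit close together on one strand are often transcribed as an operon, and operons hold many genes of basic cell functions. Of 4434 protein-coding genes with a same-strand protein-coding neighbour within 500 bases, 444 were higher and 801 lower (10.0% and 18.1%), with a median of -0.19. Of 8652 other genes 1335 were higher and 1116 lower (15.4% and 12.9%), with a median of 0.06. The medians were -0.03 and 0.03 in *dpy-27(RNAi)* and -0.10 and 0.06 in *met-2 set-25*. The split held at matched level in 4 of 5 classes. In the class second from the top 4.81% of close genes were higher and 18.9% lower, beside 10.6% and 10.3% of the others. In the lowest class the close genes had 24.4% higher and 10.7% lower, beside 24.4% and 12.9%. This comparison was chosen after the runs had been seen, and operon membership itself was not used.

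**Figure D5:**
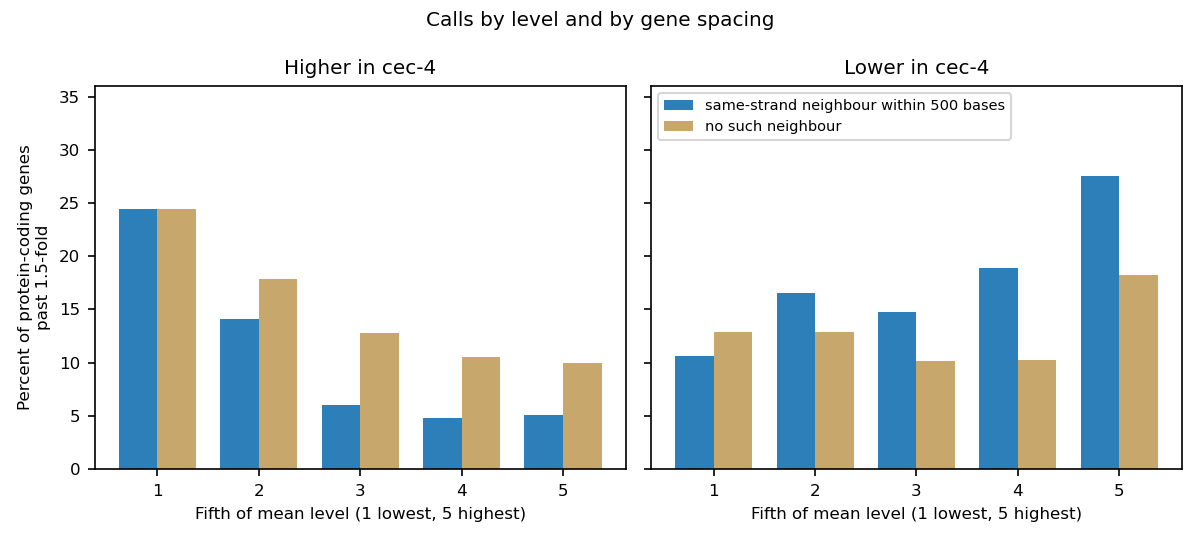
Percent of protein-coding genes higher (left) or lower (right) in *cec-4* by more than 1.5-fold, by class of mean level (5 classes of equal size), for genes with a same-strand neighbour within 500 bases (blue) and for the others (tan). Blue bars are below tan for higher genes and above tan for lower genes from the second class up, and in the lowest class the higher bars are level at 24.4%.

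The largest ratios of all belonged to very short genes. The 15 highest and the 15 lowest ratios above 5 FPKM all fell on genes that do not encode protein, with 52 to 92 bases of exon, and the group with the lower level was listed at 0 for 15 and 13 of them. *F29G9.14*, of 55 bases, was listed at 0 in wild type and at 111 FPKM in *cec-4*. Among 2134 such genes under 200 bases, 893 were higher and 587 lower (41.8% and 27.5%), whereas 733 longer ones had 160 and 86 (21.8% and 11.7%). These genes were counted and are not described further.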

How the data were processed

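Whole L1 larvae were sequenced as polyA-selected, single-end, unstranded mRNA libraries, 13 in all. Per the labels and the study's methods, the authors trimmed reads with Trim Galore, aligned them to the WS235 genome with TopHat2 2.0.13 and computed FPKM with Cufflinks 2.2.1, with reads of several origins shared among them. The deposited table holds the mean FPKM of each group, so library depth and spread are unknown here. A second deposited table holds the authors' own fold changes and p-values from HTSeq 0.6.0 counts and DESeq2 1.6.3 in R 3.2.3, and was not used.

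Genes with a mean of the *cec-4* and wild type levels above 1 FPKM were kept. The log2 ratio of values plus 0.1 was centred on the median measured gene, and a call is a difference past 1.5-fold, with no test. Position, biotype and exon length came from Ensembl release 115 (WBcel235), in which 153 measured genes were not found. Families were taken from gene name prefixes with at least 8 measured genes. Tissue and function lists were written by hand, and 770 of their genes matched and 11 did not. The members and lists were chosen with earlier results of these data known. The rule for named genes took *cec-4*, the 15 highest and 15 lowest ratios above 5 FPKM, up to 4 genes with the largest difference past 1.5-fold in a family or list, its most abundant member, and genes of the longest runs. Other named genes, the lists of mitosis and epidermal peptides, the 25 protein-coding genes at each end, the 500 base spacing split and centring within 20 bins of level were chosen after values were seen. Alternatives were other pseudocounts, minimums, centrings and folds. Scripts were tested on simulated data and used Python 3.11.15, numpy 2.4.6, pandas 2.3.3 and matplotlib 3.10.9.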

Additional observations from a re-analysis of the deposited data

How the results depend on the processing

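With a minimum of 5 FPKM 1774 genes were higher and 1509 lower in *cec-4*. With each group above 1 FPKM the counts were 2227 and 2077. With no minimum they were 4518 and 4375, and at 2-fold 1473 and 1024. Among protein-coding genes alone, centred on their own median, 1906 were higher and 1782 lower. Centring on autosomal genes gave 3065 higher and 2409 lower, and centring within bins of level 2776 and 2481. Medians that changed sign above 5 FPKM were those of C-type lectins (0.14), antimicrobial peptides and lysozymes (-0.0328), hedgehog-related genes (-0.20), coelomocyte markers (-0.0729) and moulting genes (0.53). With no minimum, moulting genes (0.0058) and F-box genes (-0.0125) changed sign. Centring within bins reversed F-box genes (-0.00047), chemoreceptors (-0.0307), gut proteases (0.131) and fatty acid desaturation and elongation (0.00149), and no centring reversed gut proteases (0.019). Other medians also changed sign, among them germline genes (-0.10 in bins, -0.24 above 5 FPKM). In all, 8 of 86 medians did so in bins, 11 above 5 FPKM, 8 with no centring and 3 with no minimum. The cause was not tested. Of 86 medians, a pseudocount of 1 moved 12 by more than 0.1 and centring within bins moved 33 besides those reversed, ribosomal proteins to -0.17 among them.

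No paired analysis was possible because the columns hold group means, and for the same reason no replicate was left out. The values carry no replicate error, and whether a 1.5-fold difference exceeds the spread of libraries was not tested.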

Other observations

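Further groups had medians near the median gene, though some held many members past 1.5-fold on both sides. The 17 endoplasmic reticulum stress genes had 2 higher and 0 lower in *cec-4*, and the 17 innexins, which form gap junctions, had 2 higher and 2 lower. Of 12 aquaporins 3 were higher and 4 lower, and of 27 genes of the intracellular pathogen response, which viruses and microsporidia induce, 5 were higher and 6 lower. Of 17 Argonautes 1 was lower. Transthyretin-like genes (*ttr*) stood out from these with 17 of 46 higher and 6 lower, led by *ttr-59* (1.75), and *ttr-26* stood at 70.9 FPKM in wild type and 242 in *cec-4*, beside 101 in *met-2 set-25* and 123 under *dpy-27(RNAi)*, highest in *cec-4*.

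Of 18 measured genes of the mitochondrial genome 10 were lower and 2 higher, with a median of -0.61, beside -0.08 in *dpy-27(RNAi)* and -0.56 in *met-2 set-25*. The mitochondrial protease *clpp-1* stood at 112.7 FPKM in wild type and 48.9 in *cec-4*, beside 85.7 in *met-2 set-25* and 84.2 under *dpy-27(RNAi)*, lowest in *cec-4*, and the chaperone *hsp-60* had a ratio of -0.82.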
